A study of Arabidopsis thaliana with 3 samples.

Results

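SR proteins are a family of RNA-binding splicing factors, and 10 of the 18 Arabidopsis thaliana SR genes are described here in the prefoldin mutant pfd4 after cold. The 10 were taken by locus code from the 29030 loci of the array: SR34 (AT1G02840), SR34a (AT3G49430), SR34b (AT4G02430), SR30 (AT1G09140), RS31 (AT3G61860), RS40 (AT4G25500), RS41 (AT5G52040), RSZ21 (AT1G23860), RSZ22 (AT4G31580) and SCL33 (AT1G55310). All 10 were on the array, with 19 spots in all, and no filter on low values was run. Total RNA of pfd4 and of the wild type Col-0 was compared on 3 dual-dye arrays, each of which took both genotypes. All plants were 2 weeks old; they had grown at 22 °C under a daily cycle of 16 h light and 8 h dark, and spent the last 24 h at 4 °C. The pfd4 plants carry a lesion in the gene for subunit 4 of prefoldin, a cytosolic chaperone complex; the labels do not give the allele, the organ or the number of plants pooled. The arrays hold cold-treated plants alone, and the ratios therefore set the genotypes against each other in the cold and do not measure a response to it.

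An SR protein has 1 or more RNA recognition motifs followed by a tail rich in arginine and serine, the RS domain. It binds exonic sequences and helps the U1 particle and the U2AF dimer to find the splice sites, and kinases of the SRPK and LAMMER types control it by phosphorylating the tail. In plants the SR transcripts are themselves spliced in alternative ways, and light, temperature and stress are known to shift the balance of forms, some of which are degraded by nonsense-mediated decay.

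Each value is a log2 ratio with pfd4 as numerator and Col-0 as denominator, so that 0 means equal levels and a ratio of 1 a doubling in pfd4. This direction is called likely, because no label states which channel was divided by which, and the sign was settled by PFD4, which stood at -3.08, -2.71 and -2.17 on arrays 1, 2 and 3. Cy3 labelled the pfd4 RNA on arrays 1 and 2, and Hyper5 labelled it on array 3. Over all loci arrays 1 and 2 correlated at r = 0.40, arrays 1 and 3 at r = -0.27 and arrays 2 and 3 at r = -0.04 (rho = 0.36, -0.25 and -0.07, across loci, which are not independent replicates). The SD over loci was 0.55 on array 2, against 0.36 and 0.37 on arrays 1 and 3. Ratios carry no brightness, so neither the level of a transcript nor the presence of a cell type can be read from them, and in RNA of bulk plant material fewer cells of a type and less RNA per cell cannot be told apart.

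The comparison of pfd4 with Col-0 asked whether the mutant held different levels of SR transcripts in the cold. None of the 10 SR genes passed limma's test across all loci (adjusted p from 0.887 to 1), as none of the 29030 loci did (0.0%). PFD4 itself, with a mean of -2.65, did not pass either (adjusted p = 0.887 in limma). With 3 arrays, failing this test therefore does not show that SR levels were equal. At an unadjusted p under 0.05, 1 of the 10 was higher, SR34b, where 2.14% of all loci were higher, and 0 of the 10 were lower, where 2.58% were. The mean ratio lay above 0 in 5 of the 10 and below 0 in 5, and 51.1% of all loci lay above 0. The median of the 10 means was -0.02, with a range from -0.365 in RSZ21 to 0.455 in SR34b, and the median over all loci was 0.01. The ratios of the SR genes varied between arrays by a median SD of 0.42, against 0.26 over all loci.

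**Figure D1:**
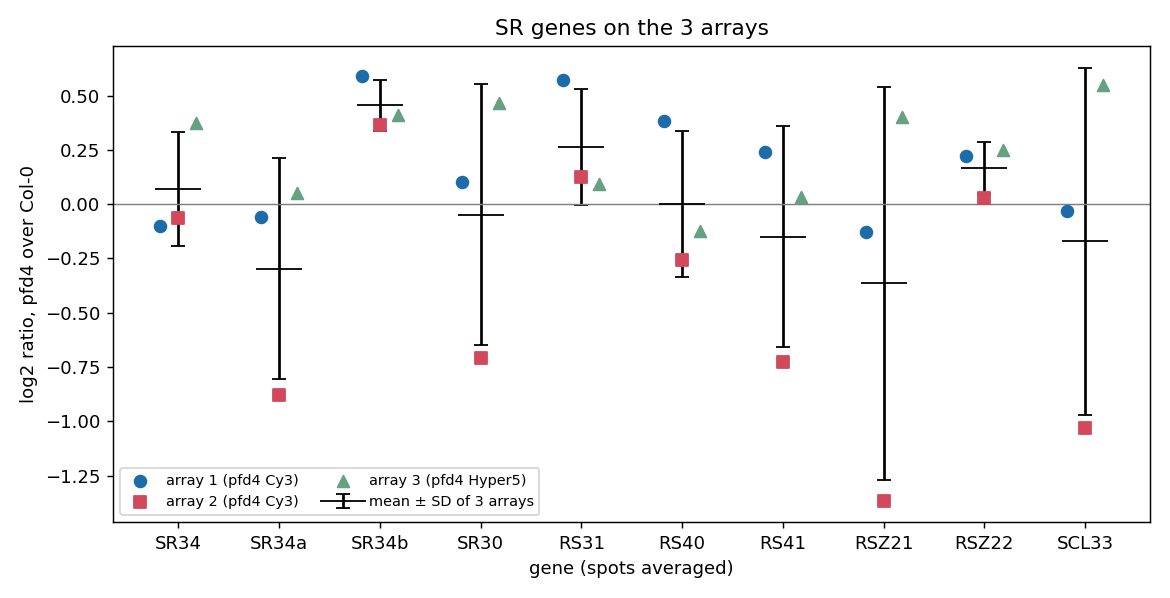
Log2 ratios of pfd4 over Col-0 (vertical axis) for the 10 SR genes (horizontal axis), with spots averaged per gene. Symbols are the 3 arrays and bars the mean ± SD; SR34b lies above 0 on every array, while RSZ21 and SCL33 lie below -1 on array 2 and above 0 on array 3.

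SR34b, a relative of the human factor SRSF1 (SF2/ASF), had the highest mean of the 10 genes. Its log2 ratios were 0.59, 0.365 and 0.41 on arrays 1, 2 and 3, all above 0 and close together. The mean was 0.455 ± 0.12 (SD, n = 3), a 1.37-fold higher level (unadjusted p = 0.0166, adjusted p = 0.887 in limma). Its mean stood above that of 95.9% of the loci. Both of its spots, annotated to splice form 2, were above 0 on all 3 arrays, at 0.60, 0.66 and 0.51 for the first and at 0.58, 0.07 and 0.31 for the second. On array 2 these spots differed by 0.59, more than the gene's mean ratio.

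SR34, also called SR1, is the SRSF1 relative best known from Arabidopsis, and its level in pfd4 was not distinguishable from that in Col-0. Averaged over its spots, SR34 stood at -0.10, -0.065 and 0.375 (mean 0.07 ± 0.26, SD, n = 3), near 0 on arrays 1 and 2 and higher on array 3. The mean hid spots that differed in sign on all 3 arrays, although on array 3 the second was almost at equality. The first SR34 spot had -0.49, -0.34 and 0.76, and the second had 0.29, 0.21 and -0.01. Both are annotated to splice form 1, and which part of the transcript each probe reads was not analysed here. Without array 3 the SR34 mean was -0.08.

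SR34a, the third gene of that name, was represented by 1 spot at -0.06, -0.88 and 0.05. It was low on array 2 and within 0.06 of equality on the other arrays, and its mean of -0.30 ± 0.51 (SD, n = 3) fell by less than the spread. Without array 2 the mean of SR34a was -0.005.

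SR30, a further gene of this subfamily, is known to alter the splicing of its own and of other SR transcripts when it is overproduced. The SR30 average was 0.10, -0.71 and 0.47 on the 3 arrays, with the lowest value on array 2 and the highest on array 3. Its mean of -0.05 ± 0.60 (SD, n = 3) turned to 0.28 without array 2. The spot annotated to splice form 2 had 0.55, -0.26 and 0.11. The spots annotated to form 1 had -0.49, -1.14 and 0.71, and 0.24, -0.73 and 0.58. All 3 spots were lowest on array 2, and the form 2 spot lay above both form 1 spots on arrays 1 and 2 and below both on array 3.

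RS31, RS40 and RS41 belong to the RS subfamily, which is specific to plants. RS31, whose splicing is known to respond to light through a signal from the chloroplast, stood at 0.57, 0.125 and 0.095. It was above 0 on all 3 arrays, with a mean of 0.26 ± 0.27 (SD, n = 3) about as large as that SD (adjusted p = 0.887 in limma). Its spots agreed on array 1, at 0.56 and 0.58, and had opposite signs on array 2, at 0.42 and -0.17, and on array 3, at -0.05 and 0.24.

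RS40, which the array annotation calls RSP35, had an average of 0.38, -0.26 and -0.12, higher in pfd4 on array 1 alone. The RS40 mean was 0.00 ± 0.34 (SD, n = 3), and without array 1 it was -0.19. Its form 1 spot had 0.03, -0.52 and -0.03, and its form 3 spots had 0.42, -0.25 and -0.25, and 0.70, 0.00 and -0.09.

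RS41, the nearest relative of RS40, followed at 0.24, -0.725 and 0.035, with array 2 alone below 0. Its mean of -0.15 ± 0.51 (SD, n = 3) became 0.14 without array 2. On array 2 the form 2 spot had -1.0 and the form 1 spot -0.45. These spots also parted on array 3, at 0.30 and -0.23, and lay at 0.33 and 0.15 on array 1.

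RSZ21 and RSZ22 carry a zinc knuckle between the RNA recognition motif and the RS domain, and are relatives of the human factor SRSF7 (9G8). RSZ21 had the lowest mean of the 10 genes and the widest spread. It stood at -0.13, -1.365 and 0.40, more than 2-fold lower in pfd4 on array 2 and higher in pfd4 on array 3. Its mean was -0.365 ± 0.91 (SD, n = 3, adjusted p = 0.929 in limma), and without array 2 it was 0.135. Both spots told the same: the form 3 spot had -0.08, -1.19 and 0.39, and the form 1 spot had -0.18, -1.54 and 0.41. The gap of 1.765 between its highest and lowest array was wider than that of 96.3% of the loci.

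RSZ22 stood at 0.22, 0.03 and 0.25 with 1 spot. It was above 0 on all 3 arrays, by little on array 2, with a mean of 0.17 ± 0.12 (SD, n = 3, adjusted p = 0.893 in limma). The difference of RSZ22 minus RSZ21 was 0.35, 1.395 and -0.15, a mean of 0.53 ± 0.79 (SD, n = 3) that changed sign between arrays.

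SCL33 is a SC35-like factor, a plant group with a charged stretch before the RNA recognition motif. SCL33 had 1 spot at -0.03, -1.03 and 0.55, again low on array 2 and high on array 3. The SCL33 mean of -0.17 ± 0.80 (SD, n = 3) turned to 0.26 without array 2.

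**Figure D2:**
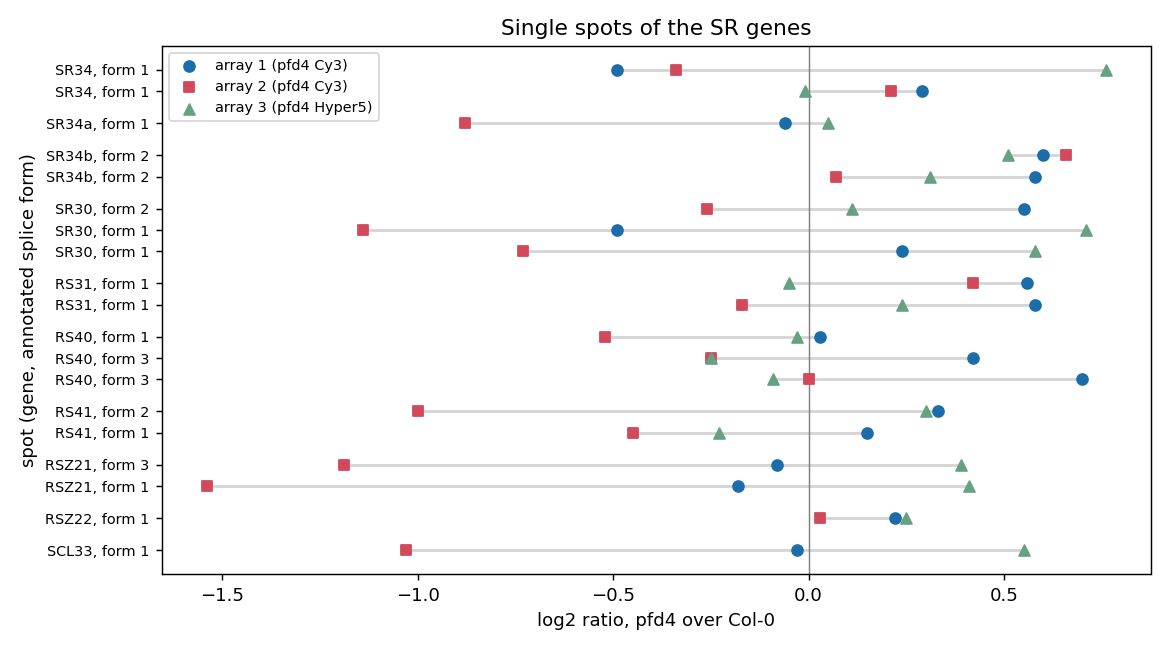
Log2 ratios of pfd4 over Col-0 (horizontal axis) for each of the 19 spots of the 10 SR genes, named by gene and annotated splice form (vertical axis); symbols are the 3 arrays and grey lines join the lowest and highest. Array 2 is the lowest in 13 of the 19 spots, against 30.8% of all spots with a locus code. The SR34 spots lie on opposite sides of equality on arrays 1 and 2, and on array 3 at 0.76 and -0.01.

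Spots of the same gene did not always give the same sign. Of the 7 SR genes with 2 or 3 spots, 4 had spots of opposite sign on at least 1 array (SR34, SR30, RS31 and RS41). Pooled over these 7 genes, the SD between spots of a gene was 0.35, 0.37 and 0.28 on arrays 1, 2 and 3, and over all 7366 loci with several spots it was 0.36, 0.38 and 0.34. Repeated E1A control spots, which carry the same name up to 32 times and read no plant gene, varied with an SD of 0.23, 0.16 and 0.17. The mean ratios of 0.17 for RSZ22 and 0.26 for RS31 were smaller than the SD between spots of a gene. That SD is of single spots on 1 array, not of a mean over arrays, and RSZ22, with 1 spot, has none of its own. Relatives such as SR34 and SR34b, or RS40 and RS41, share sequence, and hybridisation of a spot with a relative's RNA was not tested.

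Across the 10 genes, the arrays did not give the same picture. Their median ratios were 0.16, -0.48 and 0.31 on arrays 1, 2 and 3, while the medians over all loci were -0.01, 0.01 and 0.005. Array 2 gave the lowest of the 3 ratios in 8 of the 10 genes, all but SR34 and RS31, where 30.8% of all loci had their lowest ratio there. Array 3 gave the highest ratio in 6 of the 10, where 35.6% of all loci had their highest ratio there. On array 3, 9 of the 10 were above 0, where 50.2% of all loci were, and on array 2, 7 of the 10 were below 0, where 47.6% were. RSZ21 and SCL33 were below -1 on array 2, which is 2 of the 10 genes and 4.05% of all loci. The ratio was above 0 on all 3 arrays in 3 of the 10, SR34b, RS31 and RSZ22, where 12.3% of all loci were, and below 0 on all 3 in 0 of the 10, where 12.1% were. These counts by array were chosen after the values were seen and carry no test.

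Arrays 1 and 2 had the same dyes, and the ratio was higher on array 1 than on array 2 in 9 of the 10 genes, all but SR34, where 47.1% of all loci were. It was also higher on array 3 than on array 2 in 9 of the 10, all but RS31, where 48.4% of all loci were. Array 3 alone had the dyes exchanged, so an effect of dye on array 3 and a difference in its plants cannot be told apart. The part of array 2 as a whole, whose ratios spread more widely over all loci, was not tested.

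The other 8 SR genes, a fixed list not covered by the rule, gave the same order of the arrays. Their median mean ratio was -0.01, with 3 means above 0 and 5 below, and 0 of 8 passed limma's test, nor did any have an unadjusted p under 0.05. Their medians were -0.12, -0.33 and 0.30 on arrays 1, 2 and 3. Array 2 was the lowest in 7 of the 8, where 30.8% of all loci had their lowest ratio there. SCL28 was the exception, at -0.19, -0.02 and 0.23.

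Among these, SC35, the relative of human SRSF2, stood at -0.51, -1.13 and 0.78 (mean -0.29 ± 0.97, SD, n = 3). SCL30A, the closest relative of SCL33, had -0.41, -1.23 and 0.37 (mean -0.42 ± 0.80, SD, n = 3), the lowest mean of the 18 SR genes. Both showed the low array 2 and the high array 3 seen in SCL33 and RSZ21. RSZ22a, a relative of RSZ22, had -0.13, -0.23 and 1.11 and so rested on array 3 alone.

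Averaged over its 2 spots, SCL30 was steady at 0.18, 0.08 and 0.21 (mean 0.16 ± 0.07, SD, n = 3). On array 1 these spots differed by 0.38, at -0.01 and 0.37, more than the mean ratio. RS31a, the relative of RS31, was on average near equality at 0.05, -0.185 and 0.12. Its 4 spots ranged from -0.25 to 0.40 on array 1. RS2Z32 and RS2Z33, which carry a pair of zinc knuckles, had -0.11, -0.435 and 0.51, and 0.75, -0.70 and -0.12. As an average of its spots, RS2Z33 shared the low array 2 with most of the family but not the high array 3. Its spots differed by 1.18 on array 2, at -0.11 for form 3 and -1.29 for form 1. The RS2Z32 spots differed there too, at -0.02 and -0.85.

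The SR-like proteins have RS domains on both sides of the RNA recognition motif. SR45, a relative of human RNPS1 that also meets the exon junction complex, had -0.65, -0.99 and 0.44 (mean -0.40 ± 0.75, SD, n = 3). SR45a, known for its induction by strong light and heat, had -0.17, -1.06 and 0.34 (mean -0.30 ± 0.71, SD, n = 3). Neither passed limma's test (adjusted p = 0.897 and 0.928), and both were lowest on array 2 and above 0 on array 3. Each had 1 locus spot, and a spot of another transcript named SR45 did not share this pattern, at 0.07, 0.04 and -0.17.

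**Figure D3:**
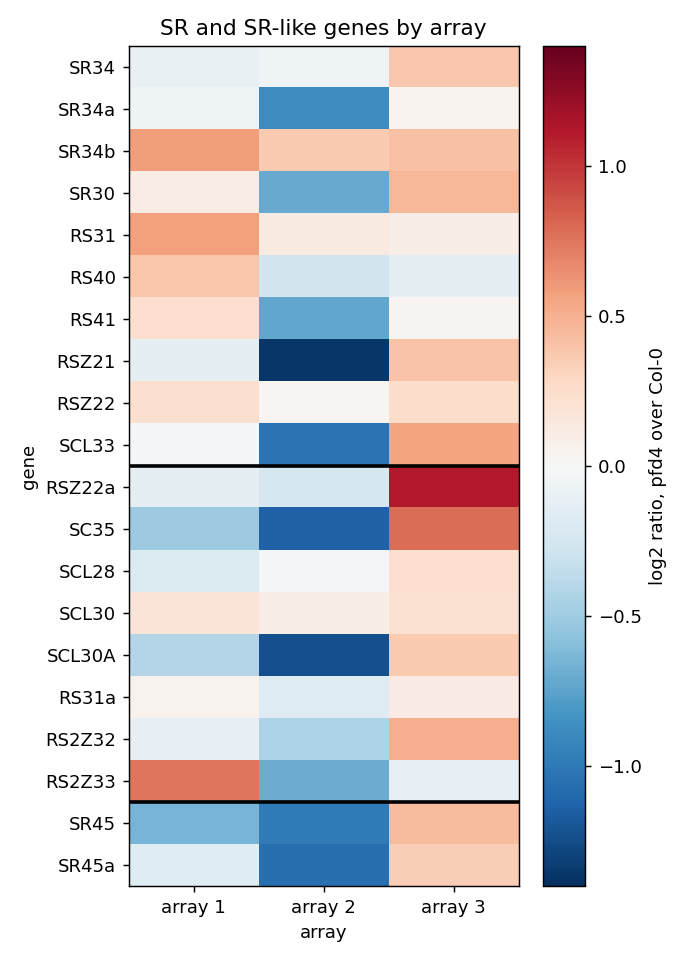
Log2 ratios of pfd4 over Col-0 as colour (red higher, blue lower in pfd4) for the 18 SR genes and 2 SR-like genes (vertical axis) on the 3 arrays (horizontal axis); black lines part the 10 SR genes described, the other 8 and the SR-like genes. The array 2 column is mostly blue, with SR34b as the clearest red cell in it, and 9 of the 10 genes in the top block are above 0 on array 3.

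Close relatives within the family were compared array by array in 8 pairs. With 3 arrays the exact sign-flip test, two-sided, cannot go below p = 0.25, so no pair could pass. SR34b lay above SR34 on all 3 arrays, by 0.69, 0.43 and 0.035 (mean difference 0.385 ± 0.33, SD, n = 3, exact p = 0.25, adjusted p = 0.8). On array 3 this order depended on the SR34 spot. The SR34 spots had 0.76 and -0.01 there, and the SR34b spots 0.51 and 0.31. SCL30A lay below SCL33 on all 3 arrays, with differences of -0.38, -0.20 and -0.18 (mean -0.25 ± 0.11, SD, n = 3, exact p = 0.25, adjusted p = 0.8). These genes had 1 spot each. In the other 6 pairs the difference changed sign between arrays, with exact p from 0.5 to 1.

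The genes that act on SR proteins were measured on the same arrays. In the list of 8 genes for SR kinases and the import receptor, no gene passed over all loci, and the median mean ratio was -0.07. At an unadjusted p under 0.05, 2 of the 8 were higher, where 2.14% of all loci were, and 1 was lower, where 2.58% were. AFC2, a LAMMER kinase known to phosphorylate SR proteins, stood at 0.40, 1.19 and 0.30 (mean 0.63 ± 0.49, SD, n = 3, unadjusted p = 0.0368, adjusted p = 0.887 in limma). AME3, a LAMMER kinase too, had 0.34, 0.71 and 0.39 (mean 0.48 ± 0.20, SD, n = 3, unadjusted p = 0.0201, adjusted p = 0.887 in limma). AFC2 and AME3 were highest on array 2, where most SR genes were lowest. AFC1, of the same list, did not share this, at 0, -0.08 and -0.14 (mean -0.07 ± 0.07, SD, n = 3). Array 2 was the lowest in 3 of the 8 genes, and the share of all loci highest on array 2 was not computed.

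AT4G35500, annotated as a protein kinase family protein, had -0.21, -0.68 and -0.31 (mean -0.40 ± 0.25, SD, n = 3, unadjusted p = 0.0469, adjusted p = 0.887 in limma). It had the lowest mean of that list and lay below 0 on all 3 arrays.

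Of the 12 genes for parts of U1 and U2AF, which SR proteins help to place at splice sites, 8 had means above 0 and 4 below, with a median of 0.18. AT1G60900, annotated as a U2AF large subunit, was the highest at 0.38, 0.585 and 0.745 (mean 0.57 ± 0.18, SD, n = 3, unadjusted p = 0.00969, adjusted p = 0.887 in limma). It was above 0 on all 3 arrays, while PRP39, with the lowest mean of the list, had -0.39, -0.46 and -0.03. Array 2 was the lowest in 4 of these 12 genes, near the share of 30.8% over all loci.

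The 6 hnRNP-type regulators, of the PTB and UBP1 families of RNA-binding proteins, had a median mean ratio of -0.11, and 0 of 6 passed or had an unadjusted p under 0.05 in limma. UBP1A had the highest mean, 0.08 ± 0.27, and UBP1B the lowest, -0.25 ± 0.19 (SD, n = 3 for both). Among 8 genes for nonsense-mediated decay and the exon junction complex the median was -0.06. Y14, a core protein of that complex, was the highest at 0.24, 0.31 and 0.37 (mean 0.31 ± 0.07, SD, n = 3, unadjusted p = 0.0527, adjusted p = 0.887 in limma). AT1G28260, to which the array annotation gives no name, was the lowest at -0.355, -0.385 and -0.47 (mean -0.40 ± 0.06, SD, n = 3, unadjusted p = 0.0213, adjusted p = 0.887 in limma). Array 2 was the lowest in 1 of the 6 hnRNP-type genes and in 0 of the 8 decay and junction genes. It was the lowest in 3 of the 8 kinase and import genes and in 8 of the 10 SR genes. The share over all loci was 30.8%, and these differences were not tested.

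Markers of other cells were read on the same arrays. Of 6 markers of dividing cells, 0 passed limma's test or had an unadjusted p under 0.05. All 6 were above 0 on array 3, where 50.2% of all loci were. The medians of these 6 were -0.22, -0.17 and 0.305 on arrays 1, 2 and 3. CDKB2;1, a kinase of dividing cells, had the lowest mean, -0.27 ± 0.38, and KN, the cytokinesis syntaxin, the highest, 0.17 ± 0.55 (SD, n = 3 for both). The 6 root markers had medians of -0.015, -0.265 and 0.25, with means from -0.305 in SCR to 0.29 in WER. The array 3 medians of both lists were thus near that of the SR genes, 0.31, and their part in the SR values was not tested. The 5 floral markers had medians of -0.22, -0.27 and -0.09, and means from -0.44 ± 0.30 (SD, n = 3) in AP1, a floral meristem gene with an unadjusted p of 0.0468 in limma (adjusted p = 0.887), to -0.04 in PI and SEP3. Array 2 was the lowest in 4 of the 6 markers of dividing cells, 3 of the 6 root markers and 2 of the 5 floral markers. Over all loci this share was 30.8%, so a low array 2 was not confined to the SR genes.

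**Figure D4:**
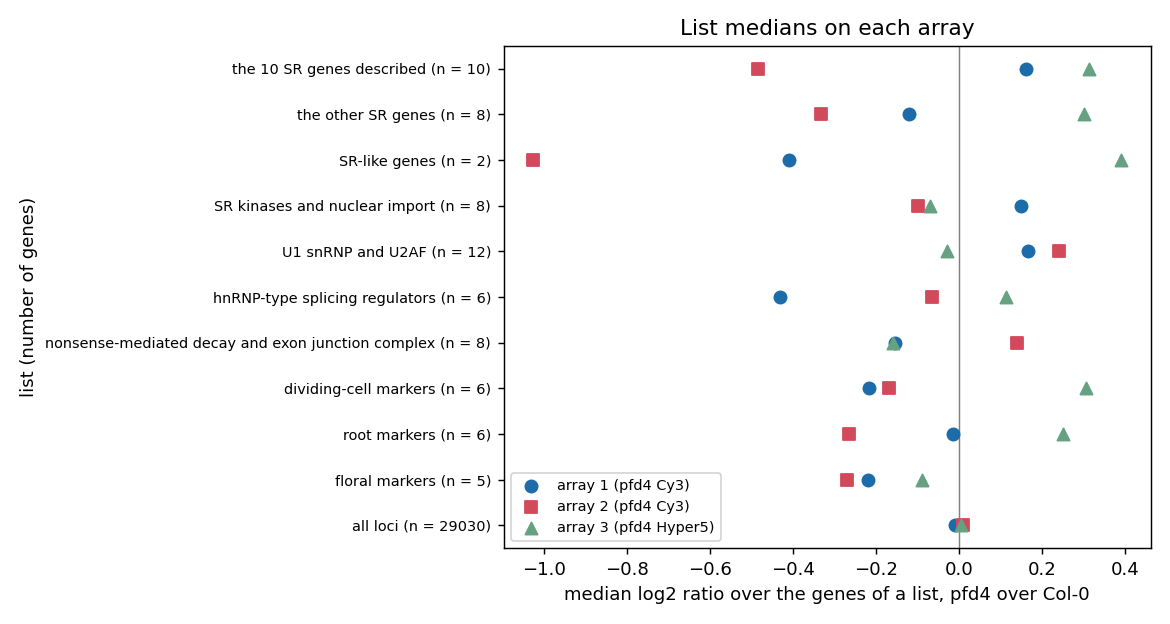
Median log2 ratio of pfd4 over Col-0 over the genes of each list (horizontal axis) on each array (symbols), for the SR genes, their partners, cell markers and all loci (vertical axis, with the number of genes). The SR and SR-like lists lie furthest to the left on array 2, at -0.48, -0.33 and -1.03, the last from 2 genes, and all loci lie near 0.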

How the data were processed

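Per the submitters' processing notes the authors used limma, and the deposited files hold its normalized log2 ratio for every spot on every array. Settings of that step, background correction among them, and the log base were not given in the sources used here; base 2 was assumed, as is usual for limma. Both deposited tables held equal values at all 45220 spots once positions were matched. The labels state replicate 1 on all arrays, so the number in each title was used; they call the arrays biological replicates.

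Of the spots, 38613 carried a locus code and were averaged per locus and array, which gave 29030 loci; 5190 spots of other transcripts and 1417 controls stayed out. Each locus was tested with lmFit and eBayes of limma 3.58.1 (R 4.3.3), which asked in a two-sided test whether its ratios average 0 over the 3 arrays, with Benjamini-Hochberg adjustment over all loci and a threshold of 0.05. The procedure was run on simulated ratios as a check of the code. Changes as small as the SR means were not simulated, so their recovery is unknown. Errors are SDs over 3 arrays, whose number limits the precision. Slides and scan dates were not analysed here.

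The 10 genes and the lists were chosen with earlier results of these data known, and lists are described by counts and medians only. All 72 listed genes were on the array; 14 listed symbols are not in the RefSeq gene table of assembly TAIR10.1, and such genes are called by the symbol or locus of that table. Named were the SR and SR-like genes, and from each other list the highest and lowest mean and members with an unadjusted p under 0.05. AFC1 was named besides, next to AFC2 and AME3. No coordinates or sequences are given.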

Additional observations from a re-analysis of the deposited data

How the results depend on the processing

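In limma, 0 loci passed the threshold under each of the 10 settings listed beforehand (first or median spot of a locus, each replicate left out, array 3 turned, a dye term, array weights, centring, common spread), and the lowest adjusted p of an SR gene was 0.378. The main fit called 0 loci too, and leaving out a replicate or adding a dye term leaves less to estimate the spread from. The unchanged count therefore does not show that the result is stable. The median of the 10 SR means, -0.02, lay between -0.16 and 0.19 without any of the replicates in turn, at 0.05 with a dye term and at -0.18 with the sign of array 3 turned. Of the 10 genes, 3 (SR34a, SR34b and RS31) kept their sign under all 11 settings tried. For SR34a the mean without array 2 was only -0.005, and with 1 spot the choice of spot could not change its value. RSZ22 had a mean of 0 with the sign of array 3 turned and kept its sign otherwise, and the other 6 turned in at least 1 setting. With the first spot of each locus the means of SR34, SR30 and RS40 became -0.023, 0.13 and -0.17, and with the median of spots that of SR30 became 0.03. With a dye term SR30 became 0.081, RS40 -0.03 and SCL33 0.01. With the sign of array 3 turned SR34 became -0.18, and with centred arrays RS40 became -0.0006. With 1 replicate left out, means ranged from -0.0825 to 0.155 for SR34, -0.305 to 0.28 for SR30, -0.19 to 0.13 for RS40, -0.345 to 0.14 for RS41, -0.75 to 0.135 for RSZ21 and -0.53 to 0.26 for SCL33. These means lie within their spread, and the cause was not tested. Adding spots of other transcripts, a setting chosen after the data were seen, changed no sign. Each array gives 1 ratio of a pfd4 and a Col-0 sample, so the test of that ratio already pairs the genotypes. No second group shares the array numbers, so no further pairing was possible. Signal over background is unknown for all spots.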

Other observations

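Outside the locus spots, 4 spots of other transcripts carry the name of 1 of the 10 SR genes in their annotation, and 1 that of SR45; they were found after the data were seen. For RS31, TC308629 had log2 ratios of 0.64, 0.24 and -0.15 on arrays 1, 2 and 3, and BX839684 had 0.42, -0.43 and 0.29. Both were above 0 on array 1, as were both locus spots of RS31, and all 4 parted in sign on the other arrays. For RS41, TA31508_3702 had 0.06, 0.17 and 0.22, without the low array 2 of the locus spots. For SCL33, TA52368_3702 had 0.11, -0.36 and 0.07, lowest on array 2 as the locus spot was, with a smaller range. The SR45 spot BX836003 stood at 0.07, 0.04 and -0.17, against -0.65, -0.99 and 0.44 at the locus spot.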
